A study of Homo sapiens with 15 samples.

Results

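The ABC (ATP-binding cassette) transporter family is described here by 45 genes, out of 33158 in a table of gene expression in triple negative breast cancer cell lines. The members were chosen by name, as every symbol made of ABC, a letter from A to G and a number. The table has 46 such symbols, and the pseudogene ABCC13 was left out. Of the 45 members, 11 are drug efflux pumps, which can carry drugs out of cells, and 34 are others. TAP1, TAP2 and CFTR are ABC genes under other symbols and are kept apart from the 45.

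RNA sequencing was done on mRNA captured with oligo(dT) beads, in 15 libraries that form 5 groups of 3. Cells of the established lines SUM149PT (labelled SUM149) and HCC1937 were sorted by flow cytometry into cancer stem cells (CSCs), defined by the surface phenotype CD44+/CD24-/low, and non-CSCs. The line SUM159PT (labelled SUM159) was left unsorted, and the study treats it as CSCs. Each group therefore stands for 1 line, and the labels name no treatment. They also do not say whether the 3 libraries of a group came from separate cultures, so every p-value measures only the spread between these libraries. In mixed RNA of many cells, fewer cells of a type and less RNA per cell cannot be told apart.

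ABC proteins bind and hydrolyse ATP at a conserved nucleotide-binding fold, and most use that energy to move a substrate across a membrane. The efflux pumps of the plasma membrane expel drugs and conjugated metabolites, and pump activity has long been used to mark stem-like cells in tumours through dye efflux. Other members move lipids, sterols, peroxisomal fatty acids or mitochondrial cofactors, some regulate potassium channels, and the ABCE and ABCF proteins act in translation and transport nothing.

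Levels are given as FPKM, mapped fragments scaled by transcript length and by library size. The number of reads behind each value is unknown, so a gene without signal is described only as listed at 0. The FPKM of all genes summed to between 291276.5 and 366532.5 in the 12 sorted libraries and to between 634746.2 and 652081.7 in SUM159PT. Levels in SUM159PT are therefore set beside the sorted lines as a description.

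Of the sort markers, CD24 was called lower in the CSCs of both lines. It was listed at 7.97, 7.64 and 7.61 FPKM in the SUM149PT CSCs against 147, 137 and 134 in the non-CSCs, and at 23.6, 22.5 and 23.9 against 167, 141 and 142 in HCC1937. CD44 was high in all 12 sorted libraries, from 61.4 to 113 FPKM, and was not called different in either line. In SUM159PT CD44 was at 28.6, 29.4 and 28.4 FPKM and CD24 at 0.759, 0.682 and 0.745. Both lay below all sorted libraries as deposited. Of 8 breast epithelial genes (EPCAM, CDH1 and 6 keratins), 7 were called lower in the CSCs of both lines by the test described below, against 4.01% of all genes tested in both. Their summed FPKM was 193, 201.9 and 198.4 in the SUM149PT CSCs, with KRT17 the most abundant, and 2395, 2321 and 2317 in the non-CSCs, with KRT19 the most abundant. In HCC1937 it was 731.7, 680.6 and 618.4 against 1845, 1855 and 1600, with KRT8 or KRT18 the most abundant.

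Of 7 mesenchymal genes, 5 were called higher in the SUM149PT CSCs, against 12.8% of all genes, and 6 in the HCC1937 CSCs, against 2.71%. TWIST1 was the 1 called lower in SUM149PT (-1.02), against 22.1% of all genes, and was called higher in HCC1937 (1.63). Their summed FPKM was 2377, 2521 and 2434 against 471.9, 463.5 and 523.7 in SUM149PT and 1088, 958 and 933.6 against 145.7, 217.2 and 190.6 in HCC1937. VIM was the most abundant in every library except SUM149PT non-CSC replicate 1, where it was FN1. In SUM159PT the mesenchymal sum was 1233, 1239 and 1262, most of it VIM, while ZEB1, ZEB2 and SNAI2 lay below all 12 sorted libraries. There the epithelial sum was 293.9, 278.2 and 292.7, with EPCAM at 0.0683, 0.0486 and 0.0233 FPKM. The epithelial and mesenchymal genes moved with the sort, as did many members described below, and their part in the results was not tested.

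The receptor genes that define triple negative tumours were low but not all absent. PGR was listed at 0 in 14 of the 15 libraries, ESR1 stayed at or below 1.86 FPKM, and ERBB2 ran from 3.39 to 20 FPKM. Among leukocyte markers CD3E was listed at 0 in every library and PTPRC did not exceed 0.0986 FPKM, while CD68 had 16.4, 16.2 and 16 FPKM in the SUM149PT CSCs and 48.1, 47 and 49.9 in the non-CSCs. In HCC1937 the CD68 levels overlapped, from 39.9 to 44.2 FPKM in CSCs and from 38.9 to 41.4 in non-CSCs, and SUM159PT had 30.5 to 34 FPKM. The 3 endothelial genes were all called lower in the SUM149PT CSCs, against 22.1% of all genes, where they summed to between 0.1568 and 0.1714 FPKM, against 1.591 to 1.827 in the non-CSCs. In HCC1937 CDH5, 1 of 2 tested, was called lower in CSCs (-1.28), against 6% of all genes. The other, PECAM1, was not called, with 0.721, 0.629 and 0.468 FPKM in CSCs and 0.533, 0.459 and 0.496 in non-CSCs. VWF was too low to test in HCC1937. Outside SUM149PT the endothelial sum did not exceed 0.9685 FPKM. The 4 fibroblast genes summed to between 224.7 and 230.2 FPKM in the SUM149PT CSCs, nearly all of it COL1A1, against 65.68 to 68.89 in the non-CSCs. Of the 3 tested in SUM149PT, COL1A1 and COL3A1 were called higher in CSCs, against 12.8% of all genes. DCN was called lower in those CSCs, against 22.1%, with 1.68, 1.78 and 1.94 FPKM against 17.8, 15.9 and 15.02. In HCC1937 the 4 genes summed to between 11.61 and 12.23 FPKM in CSCs and between 6.063 and 7.768 in non-CSCs. COL1A2, 1 of 2 tested there, was called higher in CSCs, against 2.71% of all genes. In SUM159PT the fibroblast sum was between 30.55 and 33.34.

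Differences between groups were tested with limma, a linear model that borrows information on the spread from all genes, on log2(FPKM + 0.1). A log2 difference of 1 is a doubling, and the added 0.1 makes the value understate the change of genes near or below that level. Genes whose mean reached 0.1 FPKM in the libraries compared were tested, and p-values were adjusted over all of them (Benjamini-Hochberg). A gene was called when its adjusted p was at most 0.05 and its log2 difference at least 1 in size. Counts and medians cover only the members that passed this minimum and not all 45. Members can reach it through the group where they are high, so the counts are a description.

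The family was expressed unevenly. Of the 45 members, 28 had a mean of at least 1 FPKM in at least 1 group and 16 had it in all 5 groups. At the low end, 11 stayed under 0.1 FPKM in every library, and 4 of these (ABCB11, ABCF1, ABCG5 and ABCG8) were listed at 0 in all 15. The summed FPKM of the family was 190.4 ± 1.11 (SD, n = 3) in the SUM149PT CSCs and 197.5 ± 4.27 in the non-CSCs. It was 230.3 ± 6.66 in the HCC1937 CSCs, 231.4 ± 3.15 in the HCC1937 non-CSCs and 222.6 ± 7.93 in SUM159PT. The fractions of each line thus differed little in the family's sum, while single members differed by much more.

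In SUM149PT, 32 members were tested and 10 were called higher in CSCs, against 12.8% of all 16037 genes tested. In the same line 7 members were called lower, against 22.1% of all genes. The median log2 difference was 0.39 over the members and -0.11 over all genes. In HCC1937, 29 members were tested, and 2 were called higher, against 2.71% of all 15582 genes, and 1 lower, against 6%. The medians there were 0.02 over the members and -0.03 over all genes.

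Without a test, the 3 CSC libraries lay above the 3 non-CSC libraries for 18 of the 32 members in SUM149PT, against 35.3% of all genes, and below them for 10, against 43.4%. In HCC1937 they lay above for 9 of 29, against 19.1%, and below for 9, against 24.3%. Of the 28 members tested in both lines, ABCC9 was the 1 called higher in both, against 1.23% of the 14423 genes tested in both, and ABCA12 the 1 called lower in both, against 4.01%. No member was called in opposite directions, by limma, although ABCC3 had adjusted p-values under 0.05 in opposite directions with differences too small to be called.

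The scale of the values affects the direction counts over all genes. Quantile normalization, which gives each library the same distribution, moved the all-gene median in SUM149PT from -0.11 to 0.09, and TPM rescaling, which sets each library to the same sum, moved that in HCC1937 from -0.03 to 0.09. The share of called genes that were higher went from 36.5% to 50% and from 31.1% to 42.2% in these same cases. For the difference between lines quantile normalization moved the all-gene median from -0.08 to 0.05 and TPM rescaling moved it to -0.17.

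**Figure D1:**
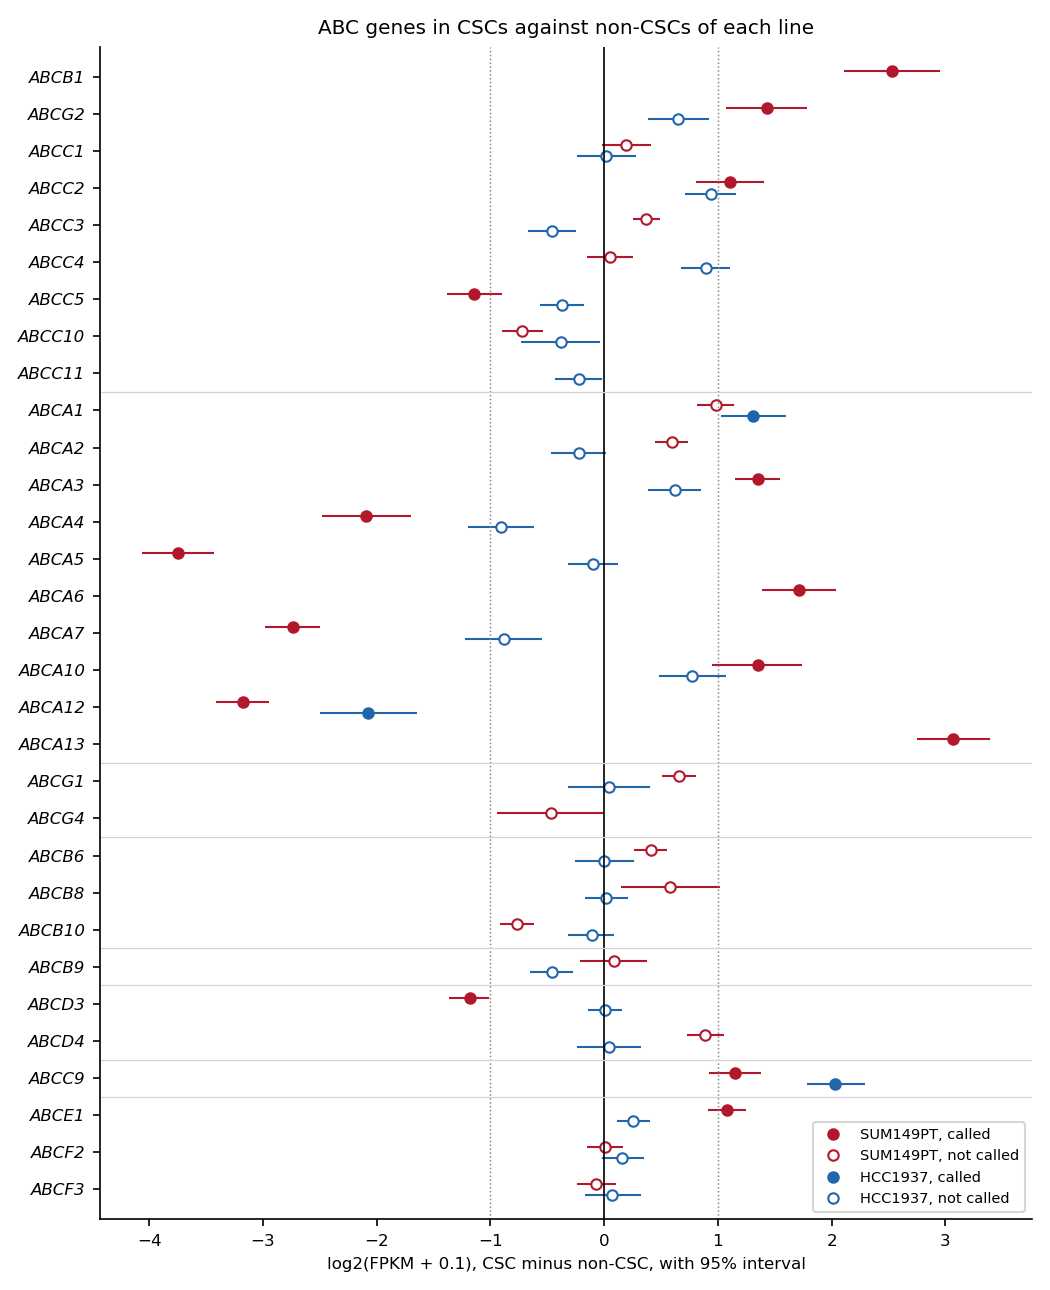
Log2 difference of FPKM + 0.1, CSC minus non-CSC, for members tested in SUM149PT (red) and HCC1937 (blue), ordered by role from the drug efflux pumps at the top; bars are 95% intervals, filled points are called and dotted lines mark a log2 difference of 1. The red points spread from -3.75 (ABCA5) to 3.07 (ABCA13), while the blue points lie mostly near 0, with ABCC9 at 2.03 and ABCA12 at -2.08.

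Among the drug efflux pumps, ABCB1 encodes P-glycoprotein, which expels a wide range of hydrophobic drugs. Its level was 1.09, 1.16 and 1.37 FPKM in the SUM149PT CSCs and 0.150, 0.0783 and 0.156 in the non-CSCs. All 3 CSC libraries were high and the groups were far from overlapping. The mean was 9.42-fold higher, with a log2 difference of 2.53 (standard error 0.17) and a limma adjusted p of 4.99e-05. With 1 FPKM added in place of 0.1 the difference was 0.97 and no longer called. ABCB1 was listed at 0 in all 6 HCC1937 libraries, and at 0.00679, 0.0148 and 0 FPKM in SUM159PT. It was therefore measured above 0.1 FPKM in SUM149PT alone among these 3 lines.

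ABCG2 encodes the breast cancer resistance protein, which works as a dimer and exports drugs and the dyes used to find side population cells. In SUM149PT it was listed at 0.644, 0.820 and 0.703 FPKM in CSCs and at 0.154, 0.241 and 0.227 in non-CSCs. Again every CSC library was above every non-CSC library. Its mean was 3.48-fold higher, with a log2 difference of 1.43 and an adjusted p of 0.000266 from limma, and 0.51 with 1 FPKM added, which is not called. In HCC1937 it was listed at 0.224, 0.174 and 0.216 FPKM in CSCs and at 0.0754, 0.0943 and 0.112 in non-CSCs. Those groups did not overlap either, but the log2 difference of 0.65 (adjusted p 0.00862) was below the limit. It passed the limit under TPM rescaling (1.01) and with 0.01 FPKM added (1.06). The CSC effect on ABCG2 differed between the lines by 0.77 (adjusted p 0.00476, limma), which was not called, while quantile normalization gave 1.28 and a call. SUM159PT had 0.0225, 0.0495 and 0.124 FPKM, overlapping the HCC1937 non-CSCs.

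The start regions of both genes are shown because they are the pumps with the largest log2 differences in the SUM149PT CSCs. Each sequence is the RefSeq promoter window of build GRCh38.p14, from 250 bases before to 50 bases after the gene start, written 5′ to 3′ on the gene's own strand. ABCB1 lies at chr7:87713246-87713545 and ABCG2 at chr4:88231577-88231876, both on the minus strand. Capitals mark a match to CACCTG on either strand. Each window was searched on both strands for 4 motifs. These are CACCTG, an E-box of the kind bound by ZEB and SNAI factors, GCGTG, the core of the xenobiotic response element, TGACNNNGC, the core of the antioxidant response element, and the direct repeat of AGGTCA, spaced by 4 bases, that liver X receptors read. Neither window holds any of them, so both are in lower case throughout.
ABCB1: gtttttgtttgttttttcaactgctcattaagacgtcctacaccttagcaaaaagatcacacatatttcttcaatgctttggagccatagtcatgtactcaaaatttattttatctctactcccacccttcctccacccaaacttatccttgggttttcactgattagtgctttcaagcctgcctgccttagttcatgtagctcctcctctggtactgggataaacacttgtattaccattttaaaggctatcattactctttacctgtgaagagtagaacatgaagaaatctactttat
ABCG2: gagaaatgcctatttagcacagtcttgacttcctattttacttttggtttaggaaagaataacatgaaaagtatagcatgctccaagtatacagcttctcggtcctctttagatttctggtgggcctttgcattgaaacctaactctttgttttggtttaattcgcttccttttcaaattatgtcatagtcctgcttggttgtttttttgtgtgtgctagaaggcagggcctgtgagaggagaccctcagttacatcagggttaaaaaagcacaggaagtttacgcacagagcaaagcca

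Of the 45 members, 35 had a promoter entry. CACCTG was present in 9 of these 35 (25.7%), against 20.6% of all 27305 promoters in the RefSeq table. GCGTG was present in 13 (37.1%), against 36.3%, and TGACNNNGC in 7 (20%), against 13.6%. The AGGTCA repeat was present in 0 of 35, against 0.0183% of all promoters. In 1 member promoter, matches to different motifs overlapped. A match describes letters in the window and does not show that a factor binds there. A window without a match does not show that other start regions of the gene lack the motif.

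ABCC2, the multidrug resistance protein that sends conjugated compounds into bile, was the remaining pump called higher in the SUM149PT CSCs. It was listed at 1.74, 1.42 and 1.70 FPKM there and at 0.604, 0.704 and 0.793 in the non-CSCs. The 3 CSC libraries were all above, by 2.32-fold in the mean, with a log2 difference of 1.11 and an adjusted p of 0.000375 (limma), and 0.62 with 1 FPKM added. In HCC1937 the CSCs had 1.98, 1.89 and 1.76 FPKM and the non-CSCs 0.954, 0.841 and 1.01. The groups were again apart, by 2.01-fold in the mean, but the log2 difference of 0.94 stayed under the limit of 1. It passed it under TPM rescaling (1.10) and quantile normalization (1.04), and reached it with 0.01 FPKM added. The CSC effect in SUM149PT minus that in HCC1937 was 0.17 (95% interval -0.17 to 0.52), and quantile normalization gave 0.57 (adjusted p 0.00996, limma), called under neither. SUM159PT had 1.09, 1.42 and 1.48 FPKM.

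ABCC5, which exports cyclic nucleotides and nucleotide analogues, went the other way. In SUM149PT its level was 1.42, 1.51 and 1.32 FPKM in CSCs and 2.91, 3.59 and 3.26 in non-CSCs. All CSC libraries were low, with a log2 difference of -1.14 and an adjusted p of 0.000132 by limma. The call ended under quantile normalization (-0.84) and with 1 FPKM added (-0.81). HCC1937 had more ABCC5 in both fractions, with 9.05, 8.21 and 8.95 FPKM in CSCs and 10.9, 11.1 and 11.96 in non-CSCs. Its CSCs were lower there too, by a log2 difference of -0.37, which was not called. SUM159PT had 1.10, 1.13 and 1.05 FPKM, below all sorted libraries as deposited but not after quantile normalization.

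ABCC3, which moves glucuronide and glutathione conjugates across the basolateral membrane, was the most abundant pump in every group. It made up 61.8% of the summed pump FPKM in the SUM149PT CSCs, 54.4% in their non-CSCs, 57.6% and 64% in the HCC1937 CSCs and non-CSCs, and 87.7% in SUM159PT. SUM149PT had 28.3, 28.1 and 28.6 FPKM in CSCs and 21.7, 22.1 and 21.9 in non-CSCs. HCC1937 had 34.9, 31.8 and 29.5 in CSCs and 42.9, 44.2 and 45.0 in non-CSCs. The CSC libraries thus lay above in SUM149PT and below in HCC1937, without overlap in either. The log2 differences of 0.37 and -0.46 were both too small to be called, and the difference between them of 0.83 (adjusted p 2.49e-05, limma interaction) was also below the limit of 1. SUM159PT had 66.1, 70.3 and 65.0 FPKM, above every sorted library as deposited but not after TPM rescaling.

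ABCC4, an exporter of cyclic nucleotides and prostaglandins, was listed at 4.61, 4.15 and 4.83 FPKM in the SUM149PT CSCs and at 4.57, 4.35 and 4.17 in the non-CSCs, which overlapped. In HCC1937 the CSCs had 3.60, 3.89 and 3.72 FPKM and the non-CSCs 1.78, 1.99 and 2.12. These did not overlap, and the log2 difference of 0.90 was under the limit, while TPM rescaling gave 1.05 and a call. The effect in SUM149PT minus that in HCC1937 was -0.85 (adjusted p 0.00012, limma), under the limit for a call. SUM159PT had 0.380, 0.496 and 0.547 FPKM, below all sorted libraries as deposited but not after quantile normalization.

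ABCC1, which exports glutathione conjugates and many drugs, had 4.82, 4.69 and 4.50 FPKM in the SUM149PT CSCs and 3.67, 4.47 and 4.10 in the non-CSCs. In HCC1937 it had 3.81, 3.00 and 3.50 FPKM in CSCs and 3.50, 3.44 and 3.20 in non-CSCs, and in SUM159PT 2.41, 2.95 and 2.97. The SUM149PT fractions did not overlap, those of HCC1937 did, and neither difference passed the adjusted p limit. ABCC10, a pump for taxanes, had 3.63, 3.34 and 3.10 FPKM in the SUM149PT CSCs and 5.55, 5.60 and 5.61 in the non-CSCs, a log2 difference of -0.72. In HCC1937 it had 4.16, 4.79 and 3.50 FPKM in CSCs and 5.32, 4.93 and 5.98 in non-CSCs, and in SUM159PT 3.78, 3.64 and 3.56. ABCC10 was lower in all CSC libraries of both lines and called in neither.

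ABCC11, known for its role in apocrine secretion, was above 0.1 FPKM in HCC1937 alone. Its level there was 1.40, 1.47 and 1.30 FPKM in CSCs and 1.51, 1.68 and 1.73 in non-CSCs. In the other lines it did not exceed 0.0669 FPKM. ABCC6 and ABCC12 did not exceed 0.0336 and 0.0419 FPKM in any library, and ABCC6 shares sequence with pseudogenes. Taking the 11 pumps as a group, 8 were tested in SUM149PT, with 3 called higher, against 12.8% of all genes, 1 lower, against 22.1%, and a median of 0.28. In HCC1937, 8 were tested with a median of -0.10. There limma called 0 of them, against 2.71% of all genes called higher and 6% lower. An unadjusted p under 0.05 was found for 7, against 37.8% of all genes. Of these pumps 3 were higher in CSCs, against 16.1% of all genes, and 4 lower, against 21.7%. The summed pump FPKM was 45.84 ± 0.57 (SD, n = 3) in the SUM149PT CSCs against 40.27 ± 0.931 in the non-CSCs. In HCC1937 it was 55.59 ± 3.33 against 68.82 ± 2.13, so the CSC sum was the larger in SUM149PT and the smaller in HCC1937. In SUM159PT the sum was 76.59 ± 2.96. Most of each sum was ABCC3, with means of 28.31 against 21.9 FPKM in SUM149PT and 32.04 against 44.03 in HCC1937. The sums moved the same way as ABCC3 in each line, so they do not describe a trait shared by the 11 pumps.

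**Figure D2:**
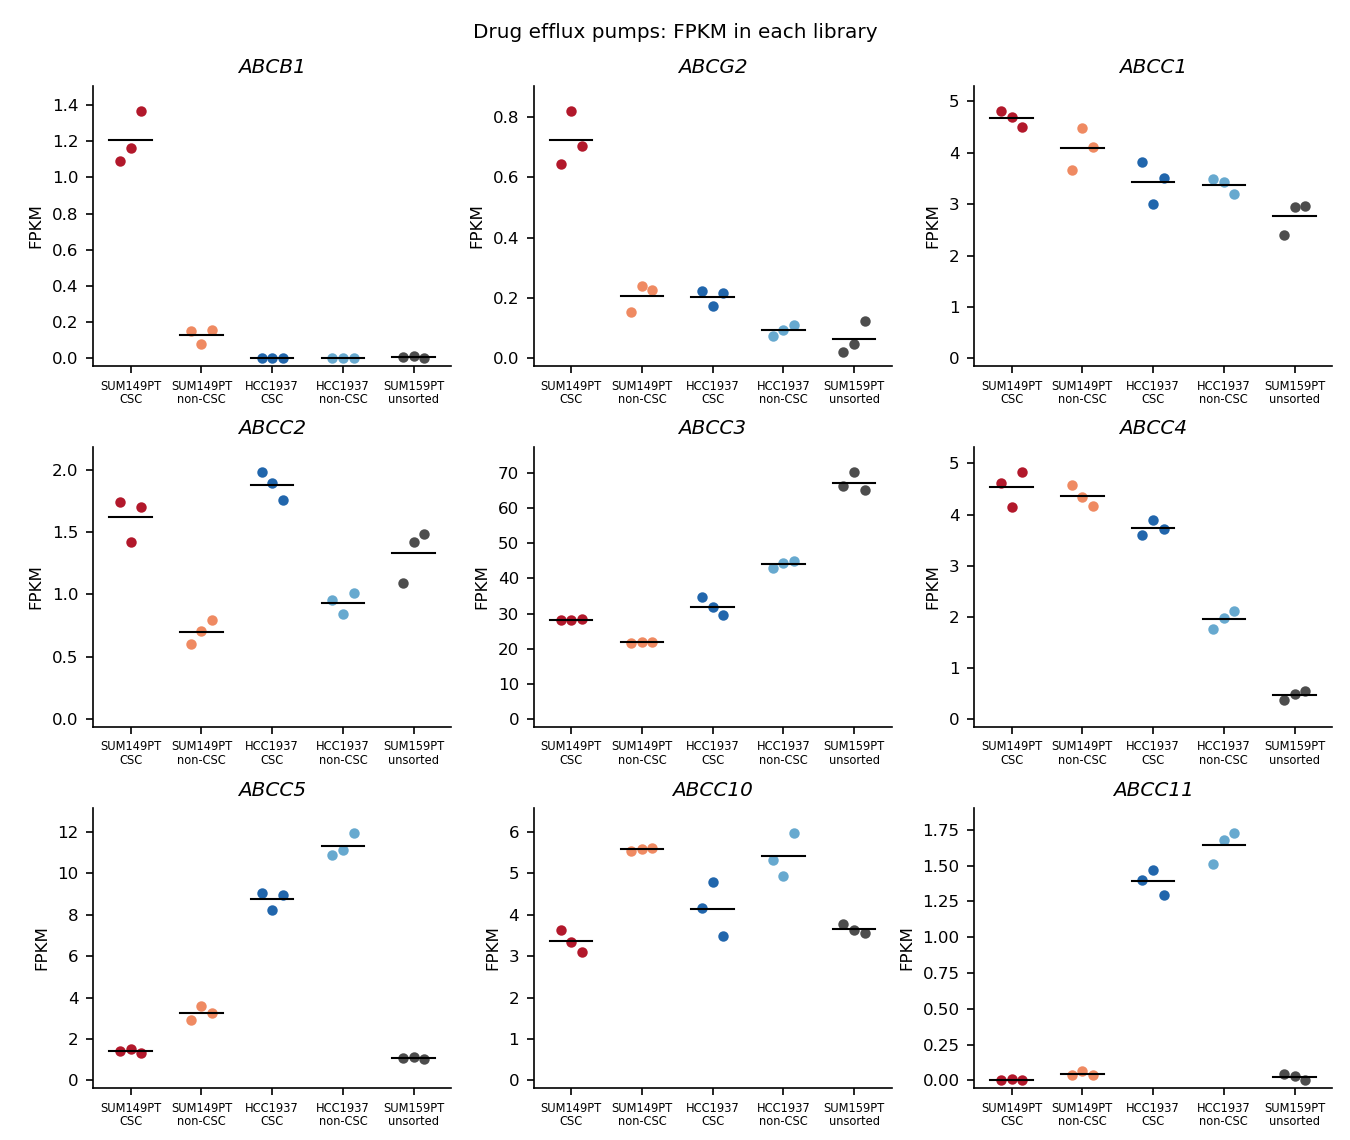
FPKM of 9 drug efflux pumps in each of the 15 libraries (points) with the mean of each group of 3 (lines), on linear axes from 0. ABCB1 is above 1 FPKM in the 3 SUM149PT CSC libraries and listed at 0 in all 6 of HCC1937, ABCC3 is highest in SUM159PT at 65.0 to 70.3 FPKM, and ABCC11 is above 1 FPKM in HCC1937 alone.

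The 12 ABCA genes encode large exporters of phospholipids and sterols, and they held the widest differences in the family. In SUM149PT 10 were tested, 4 were called higher in CSCs, against 12.8% of all genes, and 4 lower, against 22.1%, and the median was 0.79. In HCC1937 8 were tested, 1 was called higher, against 2.71%, and 1 lower, against 6%, and the median was -0.16.

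ABCA13, which encodes one of the longest proteins of the family, had 16.4, 14.6 and 15.5 FPKM in the SUM149PT CSCs and 1.80, 1.47 and 2.04 in the non-CSCs. Every CSC library was high, and the mean was 8.76-fold above that of the non-CSCs. The log2 difference was 3.07 (standard error 0.13) with a limma adjusted p of 9.74e-06. In HCC1937 it ran from 0.00614 to 0.0292 FPKM and was too low to test in that line alone, and SUM159PT had 0.00997, 0.00658 and 0.00617. In the mean it was the most abundant ABCA gene of the SUM149PT CSCs, at 31.3% of their summed ABCA FPKM, although ABCA2 was above it in replicate 2 (14.9 FPKM). It was near 0 in the other lines.

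ABCA5, a lysosomal member linked to cholesterol handling, showed the reverse. It was listed at 0.790, 0.720 and 0.623 FPKM in the SUM149PT CSCs and at 11.3, 11.8 and 9.27 in the non-CSCs. No library of either group came near the other, and the non-CSC mean was 15.2-fold the CSC mean. The log2 difference was -3.75 with a limma adjusted p of 5e-06, the most negative among the members in either line. The HCC1937 CSCs had 4.86, 4.57 and 5.48 FPKM and the non-CSCs 5.13, 5.37 and 5.51, which overlapped, with a difference of -0.10 that turned to 0.02 under TPM rescaling. The CSC effect in SUM149PT minus that in HCC1937 was -3.64 (adjusted p 5.99e-08, limma interaction). SUM159PT had 0.00839, 0.00944 and 0.0171 FPKM.

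ABCA7, which exports phospholipids and affects phagocytosis, had 1.98, 2.21 and 1.72 FPKM in the SUM149PT CSCs and 13.7 in each of the 3 non-CSC libraries. The CSCs were low by 6.95-fold in the mean, a log2 difference of -2.74 with an adjusted p of 6.05e-06 from limma. In HCC1937 the CSCs had 3.39, 3.58 and 4.26 FPKM and the non-CSCs 5.97, 7.61 and 7.42. They were lower in all 3 CSC libraries there too, by -0.88, which is under the limit. The difference between the lines was -1.86 and was called (adjusted p 8.8e-06). SUM159PT had 2.33, 2.49 and 2.14 FPKM, overlapping the SUM149PT CSCs.

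ABCA12, the lipid transporter of the epidermal barrier, was the member called lower in the CSCs of both lines. In SUM149PT it had 0.0513, 0.0462 and 0.0579 FPKM in CSCs and 1.41, 1.30 and 1.12 in non-CSCs. In HCC1937 it had 0.106, 0.146 and 0.101 FPKM in CSCs and 0.968, 0.626 and 0.885 in non-CSCs. All 6 CSC libraries were low and all 6 non-CSC libraries high. The log2 difference was -3.18 in SUM149PT (adjusted p 3.62e-06) and -2.08 in HCC1937 (adjusted p 0.000857), both by limma. With 1 FPKM added these became -1.11 and -0.70, and the call in HCC1937 ended. The effect in SUM149PT minus that in HCC1937 was -1.10 (adjusted p 0.000992, limma). That call ended under quantile normalization (-0.95), with 1 FPKM added (-0.41) and without HCC1937 non-CSC replicate 2 (-0.94). In SUM159PT it was listed at 0 in all 3 libraries.

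The ABCA12 promoter window is shown because the gene moved the same way in both lines. It lies at chr2:215138577-215138876 on the minus strand of GRCh38.p14 (RefSeq). The capitals mark a CACCTG match on the opposite strand, read here as its complement, which starts at position -22 from the gene start and was the window's sole match to the 4 motifs.
ABCA12: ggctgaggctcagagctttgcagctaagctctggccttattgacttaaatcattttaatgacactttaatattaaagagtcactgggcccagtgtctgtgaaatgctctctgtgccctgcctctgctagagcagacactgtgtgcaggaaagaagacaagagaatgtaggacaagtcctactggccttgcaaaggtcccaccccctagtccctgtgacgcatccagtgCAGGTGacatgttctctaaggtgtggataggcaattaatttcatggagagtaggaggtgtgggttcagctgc

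ABCA1, the exporter that loads cholesterol onto apolipoprotein A-I, had 5.83, 6.79 and 7.21 FPKM in the HCC1937 CSCs and 2.36, 2.85 and 2.58 in the non-CSCs. All CSC libraries were above, by a log2 difference of 1.31 with an adjusted p of 0.000987 (limma). In SUM149PT the CSCs had 11.8, 10.7 and 11.01 FPKM and the non-CSCs 5.84, 5.39 and 5.57. They did not overlap, and the log2 difference of 0.98 was just under the limit. It passed the limit under TPM rescaling (1.04), quantile normalization (1.10), and without SUM149PT CSC replicate 2 or without SUM149PT non-CSC replicate 1 (1.01 each). The difference between the lines of -0.33 had an adjusted p of 0.0506 and did not pass. SUM159PT had 0.373, 0.469 and 0.446 FPKM, below all sorted libraries.

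ABCA3, the surfactant lipid transporter of lamellar bodies, had 4.31, 3.86 and 3.71 FPKM in the SUM149PT CSCs and 1.48, 1.42 and 1.58 in the non-CSCs. The groups were well apart, with a log2 difference of 1.35 and an adjusted p of 3.29e-05 (limma), and 0.99 with 1 FPKM added. In HCC1937 the CSCs had 2.80, 2.58 and 2.47 FPKM and the non-CSCs 1.53, 1.67 and 1.82. The difference there was 0.62, not called, with all CSC libraries above. SUM159PT had 8.35, 9.41 and 9.70 FPKM.

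ABCA2, abundant in the brain and involved in lysosomal lipids, was called in neither sorted line. It ran from 9.6 to 20.1 FPKM in the 12 sorted libraries. In SUM159PT it reached 41.1, 50.1 and 48.4 FPKM and made up 79% of the summed ABCA FPKM. The remaining ABCA genes did not exceed 1.09 FPKM in any library. Named after their values were seen, ABCA6 and ABCA10 were called higher in the SUM149PT CSCs (1.71 and 1.35) and ABCA4, the retinoid transporter of photoreceptors, was called lower (-2.09). Those 3 calls ended with 1 FPKM added, at 0.42, 0.41 and -0.65.

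ABCA8, ABCA9, ABCA6, ABCA10 and ABCA5 lie next to each other on the minus strand of chromosome 17 in GENCODE release 29, with no other protein-coding gene between them. In SUM149PT the CSCs had 0.126, 0.123 and 0.155 FPKM of ABCA8 and 0.0734, 0.0479 and 0.037 of ABCA9, and the non-CSCs at most 0.0261 and 0.0129. ABCA6 was at 0.376, 0.364 and 0.490 FPKM against 0.0352, 0.0633 and 0.0669, and ABCA10 at 0.539, 0.589 and 0.425 against 0.147, 0.102 and 0.180. The 4 low genes were thus higher in all SUM149PT CSC libraries and the abundant ABCA5 lower. In HCC1937 the CSC libraries lay above for ABCA8, ABCA6 and ABCA10 and overlapped the non-CSCs for ABCA9 and ABCA5. ABCA8 and ABCA9 were below the minimum for a test. The annotated ends of ABCA10 and ABCA5 overlap by 536 bases on the same strand, and reads from there cannot be told apart.

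**Figure D3:**
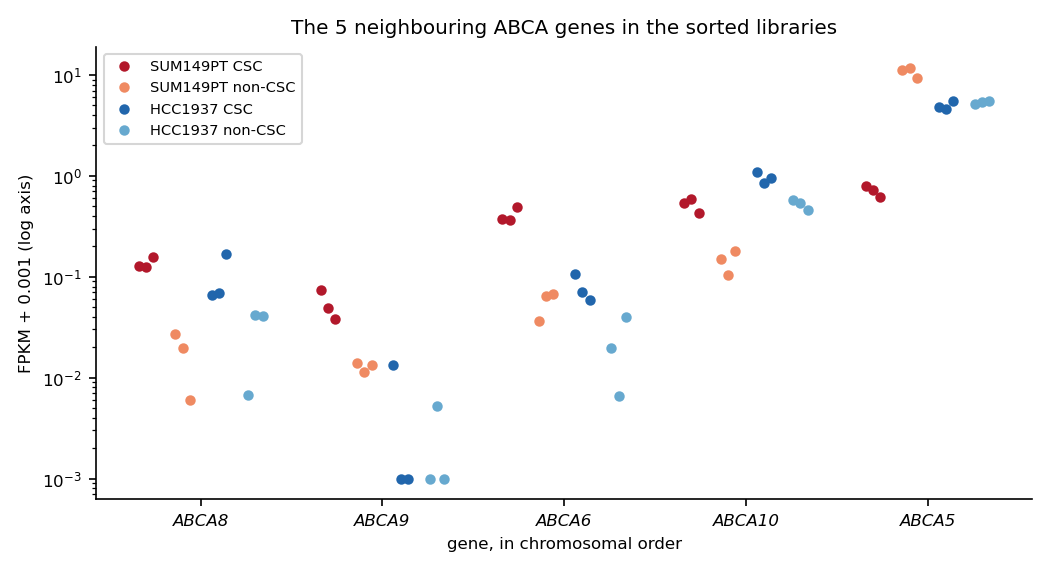
FPKM, with 0.001 added, on a log axis for the 5 neighbouring ABCA genes in chromosomal order, 1 point for each of the 12 sorted libraries. In SUM149PT the CSCs (dark red) lie above the non-CSCs (orange) for ABCA8, ABCA9, ABCA6 and ABCA10 and below them for ABCA5, where they have 0.623 to 0.790 against 9.27 to 11.8 FPKM.

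Of the sterol and bile transporters, ABCG1 and ABCG4 passed the minimum. ABCG1, which exports cholesterol to high density lipoprotein, had 11.3, 12.4 and 11.97 FPKM in the SUM149PT CSCs and 7.58, 7.33 and 7.56 in the non-CSCs. The log2 difference of 0.66 was not called, although the libraries did not overlap. HCC1937 had 0.518 to 0.761 FPKM over its 6 libraries, and SUM159PT had 15.9, 15.6 and 16.03. ABCG1 was 14.9-fold higher in the mean of SUM149PT than in that of HCC1937, a log2 difference of -3.67 for HCC1937 against SUM149PT (adjusted p 5.17e-11, limma), with all 6 libraries below. ABCG4 did not exceed 0.494 FPKM. Its sign in SUM149PT changed with quantile normalization, from -0.47 to 0.13, and it was not called under either. ABCB4, the phosphatidylcholine exporter of bile, did not exceed 0.0363 FPKM, and its neighbour on chromosome 7 is ABCB1.

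Among the mitochondrial members ABCB6, ABCB8 and ABCB10 were called in neither line. In the sorted libraries ABCB6 ran from 3.29 to 10.1 FPKM, ABCB8 from 1.15 to 4.16 and ABCB10 from 4.2 to 7.94. Beside them, ABCB9, a lysosomal peptide transporter, ran from 1.57 to 3.16 FPKM in the sorted libraries, and ABCB5 did not exceed 0.00889 FPKM.

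The ABCD proteins bring fatty acids into peroxisomes, apart from ABCD4, which handles cobalamin in lysosomes. ABCD3, a major protein of the peroxisomal membrane, was listed at 7.01, 6.21 and 6.72 FPKM in the SUM149PT CSCs and at 15.9, 14.9 and 14.7 in the non-CSCs. All 3 CSC libraries were low, with a log2 difference of -1.18 and an adjusted p of 3.28e-05 by limma. HCC1937 ran from 11.9 to 12.5 FPKM over both fractions, with a difference of 0.01 and an interaction value of -1.19 (adjusted p 1.39e-06). SUM159PT had 0.742, 0.471 and 0.550 FPKM. ABCD4 had a log2 difference of 0.89 in SUM149PT, which passed the limit under quantile normalization alone among the scalings (1.10). ABCD2 did not exceed 0.044 FPKM. PEX3 and PEX19, which insert such proteins into the peroxisome, were both tested. In each line limma called 0 of 2, against 12.8% higher and 22.1% lower of all genes in SUM149PT and 2.71% and 6% in HCC1937. An unadjusted p under 0.05 was found for 2 in SUM149PT (-0.97 and -0.29) and 1 in HCC1937. Of all genes, 76.6% and 37.8% were under that p, so the counts for 2 genes are near the background.

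ABCC9 encodes SUR2, a regulatory subunit of ATP-sensitive potassium channels, and was the member called higher in the CSCs of both lines. In HCC1937 it had 7.28, 6.77 and 7.39 FPKM in CSCs and 1.46, 1.76 and 1.81 in non-CSCs. In SUM149PT it was far lower, at 0.326, 0.259 and 0.306 FPKM in CSCs and 0.0912, 0.0644 and 0.0810 in non-CSCs. Every CSC library was above every non-CSC library of its own line, and the lowest HCC1937 library was above the highest of SUM149PT. The mean was 4.27-fold higher in the HCC1937 CSCs, a log2 difference of 2.03 (standard error 0.10) with a limma adjusted p of 0.000212. In SUM149PT the mean was 3.77-fold higher, a log2 difference of 1.15 (adjusted p 0.000116, limma) that was 0.27 with 1 FPKM added and 1.79 with 0.01 added. The difference between the lines of -0.88 was not called and depended on the amount added, with -1.34 and a call for 1 FPKM and -0.30 without a call for 0.01. SUM159PT had 0.0212, 0 and 0.0146 FPKM.

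The partners that form the channel pore were too low to test in the sorted lines. KCNJ8 had 0.128, 0.143 and 0.0794 FPKM in the SUM149PT CSCs, 0.149, 0.0829 and 0.121 in the HCC1937 CSCs and at most 0.0488 in the non-CSCs of either line. KCNJ11 went the other way in HCC1937, with 0, 0.0339 and 0 FPKM in CSCs and 0.142, 0.134 and 0.0983 in non-CSCs, and its SUM149PT fractions overlapped at or below 0.0663. SUM159PT had 0.291, 0.405 and 0.255 FPKM of KCNJ8 and 0.516, 0.399 and 0.372 of KCNJ11. Both lay above all sorted libraries as deposited. ABCC8, the other channel regulator in the family, did not exceed 0.00637 FPKM. The ABCC9 promoter window is shown for the same reason as that of ABCA12. It lies at chr12:21941377-21941676 on the minus strand of GRCh38.p14 (RefSeq) and holds none of the 4 motifs.
ABCC9: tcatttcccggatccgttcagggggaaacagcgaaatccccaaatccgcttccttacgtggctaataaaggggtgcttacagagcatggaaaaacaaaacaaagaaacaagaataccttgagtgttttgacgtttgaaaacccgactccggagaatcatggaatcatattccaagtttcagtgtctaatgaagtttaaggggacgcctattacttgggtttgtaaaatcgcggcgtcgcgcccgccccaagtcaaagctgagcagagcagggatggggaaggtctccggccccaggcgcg

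The ABCE and ABCF proteins carry the ATP-binding fold without a membrane domain. ABCE1, which splits ribosomes after translation, had 22.25, 22.23 and 22.25 FPKM in the SUM149PT CSCs and 11.4, 10.1 and 10.1 in the non-CSCs. The CSCs were high throughout, with a log2 difference of 1.08 and an adjusted p of 4.18e-05 (limma). In HCC1937 it had 40.2, 40.2 and 41.8 FPKM in CSCs and 34.5, 33.7 and 34.1 in non-CSCs, which also did not overlap but differed by 0.25. SUM159PT had 1.36, 1.68 and 1.74 FPKM. ABCF2 and ABCF3 ran from 4.37 to 8.11 and from 11.3 to 38.6 FPKM in the sorted libraries and were called in neither line. ABCF1 was listed at 0 in all 15 libraries, which in such a table can also be a failed estimate.

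**Figure D4:**
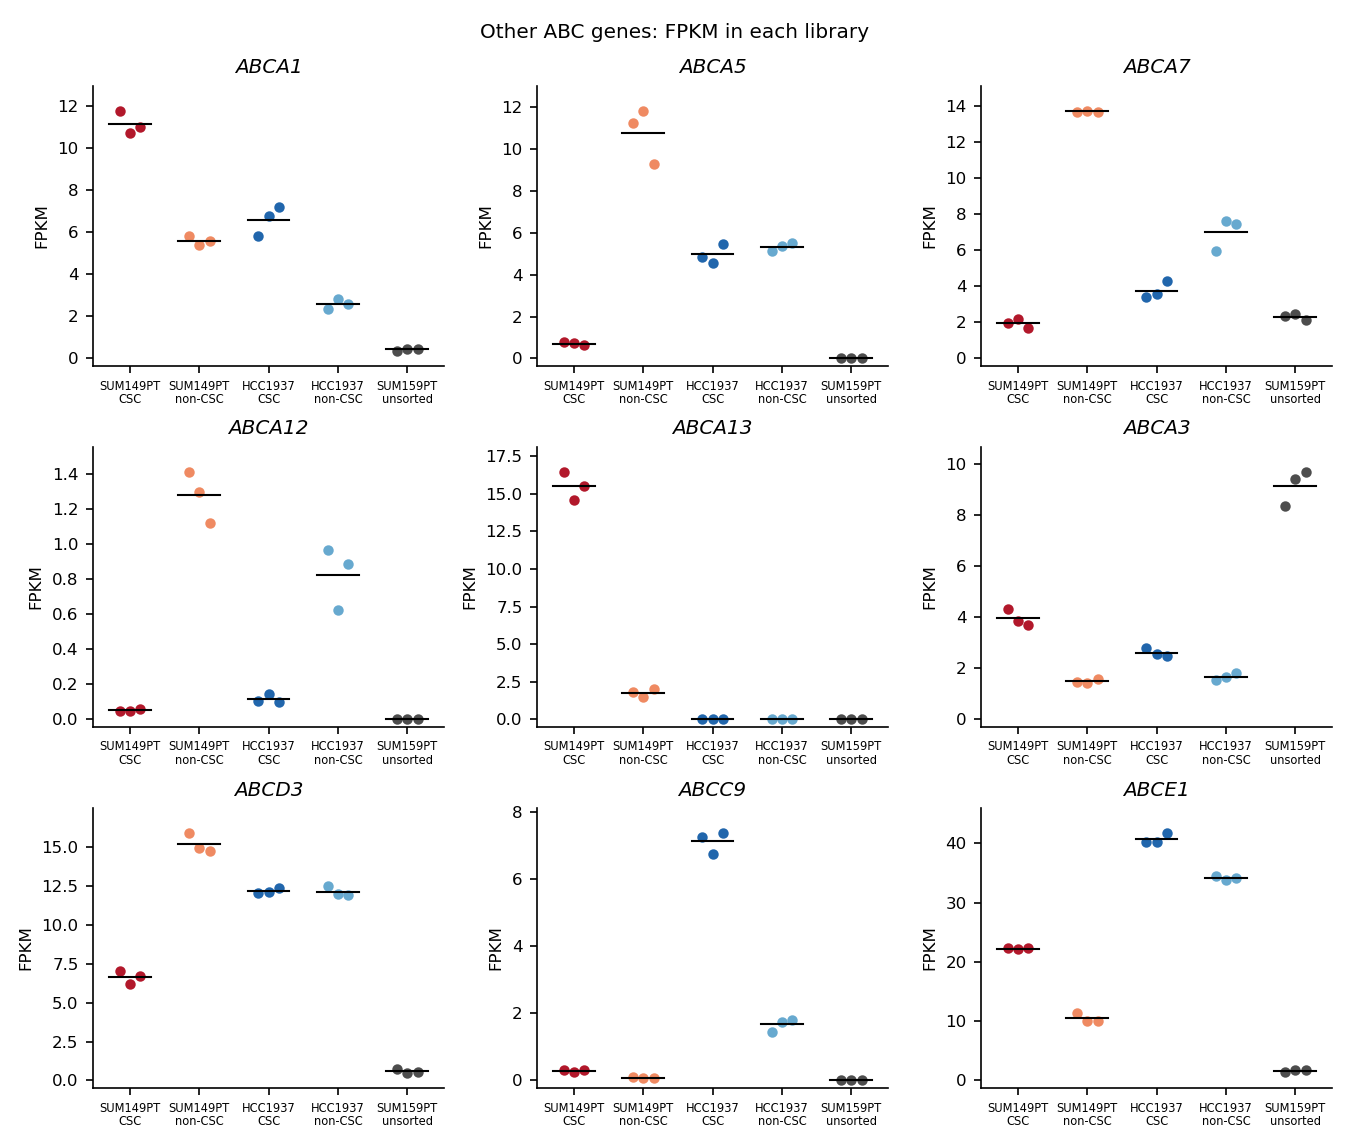
FPKM of 9 members outside the drug efflux pumps in each of the 15 libraries (points) with group means (lines), on linear axes from 0. ABCA13 reaches 14.6 to 16.4 FPKM in the SUM149PT CSCs alone and ABCC9 6.77 to 7.39 in the HCC1937 CSCs alone.

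Whether the CSC effect itself differed between SUM149PT and HCC1937 was tested with the interaction of line and fraction in the 12 sorted libraries. Of 33 members tested, 4 had a higher effect in SUM149PT, against 12.2% of all 16451 genes, and 6 a lower effect, against 18.2%. The median was 0.17 over the members and -0.08 over all genes. Among those higher were ABCB1 (2.53), ABCA6 (1.16) and ABCA13 (3.02). For ABCB1 the value equals the SUM149PT difference, since HCC1937 was listed at 0 throughout. ABCA6 and ABCA13 were at or below 0.105 and 0.0292 FPKM in HCC1937, too low to test there. Their values therefore say little about that line. Among those lower were ABCA4, ABCA5, ABCA7, ABCA12 and ABCD3. Of 9 pumps tested, ABCB1 alone was called different, against 12.2% of all genes called higher and 18.2% lower. Which pumps were called depended on the setting. With 1 FPKM added ABCB1 was at 0.97 and not called. ABCG2 was called under quantile normalization (1.28), and ABCC11 with 0.01 FPKM added (-1.74) and under TPM rescaling (-1.01). ABCC11 was at or below 0.0669 FPKM in SUM149PT, too low to test there, so nothing is read from those values. The calls of ABCA4 and ABCA6 also ended under other settings.

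The lines also differed in level, averaged over both fractions. Of 33 members, 7 were called higher in HCC1937, against 22.4% of all 16451 genes, and 7 lower, against 17.9%, with medians of 0.27 over the members and 0.16 over all genes. TPM rescaling and quantile normalization each moved that all-gene median to 0.06. With 1 line on each side, this compares these lines and no class of tumours. The pumps higher in HCC1937 were ABCC5 and ABCC11, and those lower were ABCB1 and ABCG2. With 1 FPKM added, both of the lower calls ended (-0.66 and -0.33). ABCC9 was higher in HCC1937 by a log2 difference of 3.75 (1.98 to 4.40 over the settings tried) and ABCC11 by 3.70 (1.29 to 5.76). ABCA13 was lower by -5.50, a value that ran from -7.56 to -2.73 over the settings tried, with all HCC1937 libraries at or below 0.0292 FPKM.

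In SUM159PT, all 3 libraries lay above the 12 sorted libraries for 6 of 33 members, against 16.4% of 16373 genes, and below them for 12, against 39.8%. The 6 were ABCC3, ABCA2, ABCA3, ABCG1, ABCB9 and ABCF2. After TPM rescaling ABCA2 alone remained above and 17 members lay below, and with quantile normalization 11 lay above and 6 below. Over all genes the shares were then 6.28% above and 53.5% below, and 26.5% above and 24.5% below. The position of SUM159PT is therefore tied to the scale for most members. ABCA1, ABCA5, ABCA12, ABCB10, ABCD3 and ABCE1 lay below all sorted libraries on each of the 3 scales. ABCB1, ABCA13 and ABCC9, each high in the CSCs of a sorted line, were at or below 0.0212 FPKM in SUM159PT.

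**Figure D5:**
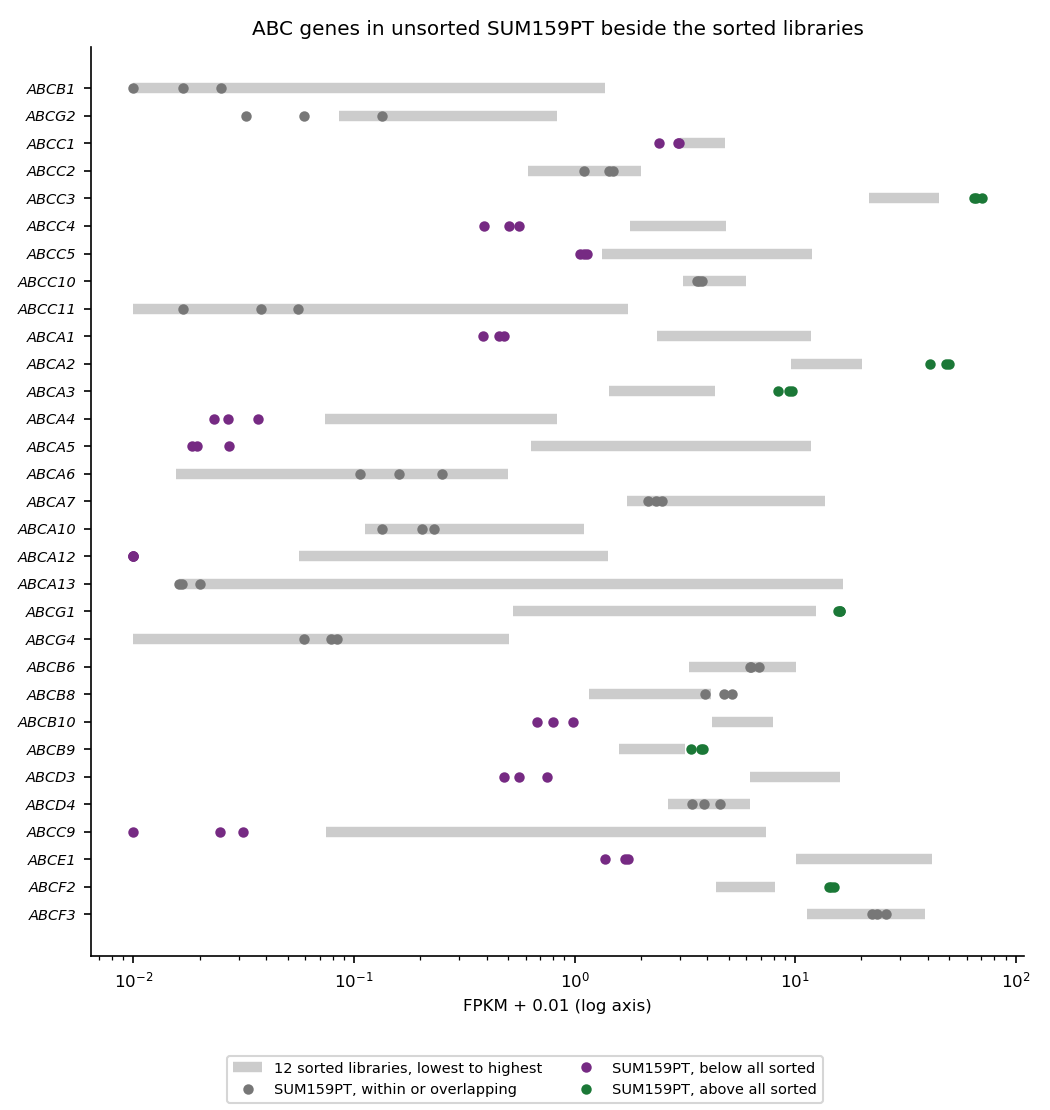
FPKM, with 0.01 added, on a log axis for members whose mean over the 15 libraries reached 0.1 FPKM; grey bars run from the lowest to the highest of the 12 sorted libraries and points are the 3 SUM159PT libraries. Values are as deposited, with members above the bars in green and those below in purple. The 6 above include ABCC3 and ABCA2.

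Of 12 sterol and xenobiotic receptor genes, which include regulators of ABC genes, 10 were tested in SUM149PT. RXRA was called higher (1.43), and NR1H3 (-2.08) and SREBF1 (-3.08) were called lower, beside 12.8% and 22.1% of all genes. NR1H3 encodes a liver X receptor, a factor that activates ABCA1 and ABCG1. Its level was 1.35, 1.65 and 1.70 FPKM in the CSCs and 7.08, 7.19 and 6.58 in the non-CSCs. NR1H2, the more abundant liver X receptor gene of the list, was not called (-0.18). Its SUM149PT fractions overlapped, with CSCs at 20.26, 21.18 and 23.24 FPKM against 23.17, 24.37 and 25.69. For HCC1937 the NR1H2 mean was 43.61 FPKM in CSCs against 44.58. In HCC1937 limma called 0 of the 10 tested, against 2.71% of all genes higher and 6% lower, with NR1H3 at -0.09. There 3 had an unadjusted p under 0.05, against 37.8% of all genes. NR1I2, the pregnane X receptor, did not exceed 0.0626 FPKM, and NR1I3 was listed at 0 throughout. NFE2L2 and AHR were abundant in SUM149PT and called in neither line.

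Of 11 genes for glutathione and conjugation, which supply substrates of the ABCC pumps, limma called 5 lower in the SUM149PT CSCs, against 22.1% of all genes, and 0 higher, against 12.8%, with a median of -0.84. At an unadjusted p under 0.05, 8 were lower, against 42.5%, and 0 higher, against 34.2%. Those called were GSS, GSTM3, GSTK1, MGST1 and MGST2, at -1.09, -3.64, -1.69, -2.57 and -2.44. In HCC1937 limma called MGST2 lower (-1.31) and 0 higher, against 6% and 2.71% of all genes, with a median of -0.12. At an unadjusted p under 0.05, 5 were lower, against 21.7%, and 1 higher, against 16.1%. APOE, an acceptor of exported lipid, was higher in the SUM149PT CSCs by 0.84 and lower in the HCC1937 CSCs by -0.92. Neither was called, while the difference between those effects was (1.75, adjusted p 0.000122, limma). APOA1 was too low to test.

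TAP1 and TAP2, which form the peptide transporter of antigen presentation, had uneven replicates in the SUM149PT CSCs. TAP1 had 2.09, 0.764 and 0.414 FPKM in the SUM149PT CSCs and 38.1, 37.8 and 33.7 in the non-CSCs, and was called lower (-5.21, adjusted p 0.000257, limma). It was listed at 0 in all 6 HCC1937 libraries. TAP2 had 23.5, 44.5 and 52.9 FPKM in the SUM149PT CSCs and 8.37, 8.36 and 10.999 in the non-CSCs, and was called higher (2.04, adjusted p 0.00184, limma). In HCC1937 it had 71.9, 69.1 and 71.9 FPKM in CSCs and 92.6, 93.5 and 106 in non-CSCs, lower in CSCs by a log2 difference of -0.45, which was not called. In the SUM149PT CSCs the library with most TAP1 had least TAP2, and whether reads of these genes were assigned correctly was not tested. CFTR did not exceed 0.0225 FPKM.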

How the data were processed

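The authors deposited a table of FPKM for 33158 gene symbols in 15 mRNA libraries, 3 in each of 5 groups, sequenced on an Illumina instrument. The submitters' processing notes name Bowtie2 and GRCh38, while the annotation and the tool that made the FPKM are not given in the sources used here. All columns were mapped to a library (0 unmapped). Line and fraction came from the labels, and the sort and the state of SUM159PT also from the study's text. Depth is unknown, so no interval for counting error is given. Ratios of low values place the depths within a group at most 1.231-fold apart.

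In R 4.3.3, limma 3.58.1 (lmFit, eBayes) was run on log2(FPKM + 0.1). Genes whose mean reached 0.1 FPKM in the libraries fitted were kept, with Benjamini-Hochberg adjustment over all of them. Each line was fitted on its 6 libraries, and the interaction and the comparison of lines on the 12 sorted libraries. SUM159PT was described by counts of libraries that do not overlap, without a test. The model was tested on simulated data.

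Single results for some members are not reported here, although the counts and medians include them. The members and lists were chosen with earlier results of these data known. Each pump was to be described with its value in every library, or by its range where its mean over the 15 libraries was under 0.1 FPKM. Other members were to be named where called in a sorted line and averaging 1 FPKM or more in a group, and those named besides were chosen after their values were seen. Alternatives were pseudocounts of 0.01 and 1, no expression minimum, TPM rescaling, quantile normalization, eBayes with a trend and robust, the replicate number as a block, the study's adjusted p limit of 0.0001, no fold change limit, a fit over all 15 libraries, a mean of at least 1 FPKM for the SUM159PT counts, and leaving out each library. Leaving out libraries in the SUM159PT counts was chosen after seeing the data.

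Promoters came from a RefSeq table (GRCh38.p14) and neighbouring genes from GENCODE release 29. Python 3.11.15 with pandas 2.3.3, numpy 2.4.6 and matplotlib 3.10.9 was used.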

Additional observations from a re-analysis of the deposited data

Results flagged for a closer look

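The CSC effect of the members below differed between SUM149PT and HCC1937 by the limma interaction test, with an adjusted p no higher than 0.05 and effects at least 1 apart on the log2 scale. Each value is the effect in SUM149PT minus that in HCC1937, and the causes were not tested.

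ABCB1 differed by 2.53 (95% interval 2.12 to 2.94, adjusted p 1.67e-06), with HCC1937 listed at 0, and was no longer called with a pseudocount of 1 (0.97). ABCA13 differed by 3.02 (95% interval 2.65 to 3.4, adjusted p 3.01e-07), with HCC1937 at or below 0.0292 FPKM, so for both genes the value carries little beyond the SUM149PT difference. ABCA6 differed by 1.16, with HCC1937 at or below 0.105 FPKM and too low to test alone, so the value says little about that line. The ABCA6 call ended with a pseudocount of 0.01 (1.11) or 1 (0.34).

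The effect was lower in SUM149PT for ABCA5 by -3.64, ABCA7 by -1.86, ABCD3 by -1.19, ABCA4 by -1.18 and ABCA12 by -1.10. For ABCA5 and ABCD3 the HCC1937 fractions overlapped, while for ABCA4, ABCA7 and ABCA12 the CSC libraries were lower in that line too. The call for ABCA12 ended under quantile normalization (-0.95), with a pseudocount of 1 (-0.41) and without HCC1937 non-CSC replicate 2 (-0.94). That for ABCA4 ended under quantile normalization (-0.84) and with a pseudocount of 1 (-0.43).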

How the results depend on the processing

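Over 127 combinations of member and comparison, 2174 values were recomputed under other settings, of which 2128 kept their side of the threshold, 22 became called and 24 were no longer called. The sign changed in 35 of the 2128, none of them called under either setting. All counts below are of members, and where no reason is given the cause was not tested. Calls over all genes moved too, so a changed count is not read as a result about the members. TPM rescaling moved the all-gene calls in HCC1937 from 422 higher and 935 lower to 615 and 842. Quantile normalization moved those in SUM149PT from 2045 higher and 3551 lower to 2790 and 2795. For the settings other than the scalings, shares over all genes are not given.

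With a pseudocount of 1, which shrinks differences of low genes by construction, the 10 called higher in the SUM149PT CSCs became 3, the 1 lower in HCC1937 became 0, the 4 interactions higher in SUM149PT became 2 and the 7 lower in HCC1937 than in SUM149PT became 4. The 1 higher and the 1 lower in both lines each became 0. With a pseudocount of 0.01 the 2 called higher in HCC1937 became 4, the 1 lower became 2, and those higher and lower in both lines became 3 and 2. TPM rescaling gave 5 higher and 2 lower in HCC1937, 4 higher and 2 lower in both lines, and 1 above all sorted libraries in SUM159PT in place of 6. Quantile normalization gave 3 higher in both lines, and 11 above and 6 below in SUM159PT in place of 6 and 12. It also gave 12 higher and 6 lower in SUM149PT, and 6 and 4 interactions.

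At an adjusted p of 0.0001, a stricter limit, SUM149PT kept 6 higher, and HCC1937 had 0 higher and 0 lower, so that both lines together had 0 and 0, by limma. Without a fold change limit, which can only add calls, SUM149PT had 17 higher, HCC1937 8 higher and 6 lower, the interaction 15 and 11, HCC1937 against SUM149PT 17 and 13, and both lines 7 higher and 4 lower.

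Leaving out each library in turn gave 10 to 11 higher and 7 to 7 lower in SUM149PT, 2 to 2 and 1 to 1 in HCC1937, 4 to 4 and 5 to 6 interactions, 7 to 7 and 7 to 7 between the lines, 1 to 2 and 1 to 1 in both lines, and 6 to 7 above and 12 to 13 below in SUM159PT. The 2 higher in both lines were found without SUM149PT CSC replicate 2 or without SUM149PT non-CSC replicate 1, where ABCA1 (1.01) passed the limit.

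The replicate block, which treats libraries of the same number as a pair, gave 10 higher and 7 lower in SUM149PT and 2 and 1 in HCC1937. Deviations of same-numbered libraries from their group means correlated over genes at 0.088, 0.023 and 0.08 in SUM149PT and -0.078, -0.035 and -0.009 in HCC1937, so the libraries were not treated as paired. The unknown depth limits genes under 0.1 FPKM, where a value of 0 and a low level cannot be told apart. With 3 libraries from 1 line in each group, the values describe these lines.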
